A study of Mus musculus with 30 samples.

Results

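Metformin added to leucine was followed in C2C12 myotubes, the fused muscle fibres that a mouse myoblast line forms in culture, by comparing the 6 MET+LEU libraries with the 6 LEU libraries, 12 of the 30 libraries of the series, across all genes. In both groups wild-type C2C12 cells were differentiated for 4 days in 2% horse serum and then kept for 4 days in low-glucose medium without serum, 8 days in all. LEU cultures received 500 nM leucine during the serum-free days, and MET+LEU cultures received 500 nM leucine and 100 nM metformin. Serum deprivation, leucine and the cell line are thus common to both sides, and metformin is the difference that the labels give. A difference in handling between the groups could not be told apart from it. The remaining libraries, 6 each, were serum-fed (2% HS), serum-deprived (SD) or serum-deprived with 100 nM metformin (MET), and MET and SD are used below as the same addition made without leucine. The labels do not say that the 6 libraries of a group came from separate cultures, so p-values measure only the spread between these libraries, which may be technical. C2C12 is a single immortalised line, and in bulk RNA fewer cells of a type cannot be told apart from less RNA per cell.

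Metformin is a biguanide that is known to slow complex I of the respiratory chain and to activate AMPK, the kinase that senses low cellular energy. Leucine is an essential branched-chain amino acid that is sensed by Sestrin2 and the cytosolic leucyl-tRNA synthetase and activates mTORC1. This kinase complex drives ribosome production, translation and muscle protein synthesis and restrains autophagy. AMPK is known to restrain mTORC1. The culture medium holds leucine of its own, so LEU is an addition to a medium that is not leucine-free.

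In MET+LEU vs. LEU, 733 of 15907 genes tested were higher (4.61%) and 266 were lower (1.67%) at an adjusted p under 0.05 in edgeR's quasi-likelihood test, which gave every adjusted p below unless another is named. The changes were small: the median absolute log2 fold change of these 999 genes was 0.204, 684 of them lay under 0.25, 63 reached 0.5 and 14 reached 1. Of the genes called, 713 of the 733 higher and 228 of the 266 lower were protein-coding. The shares called higher were 34.2% of proteasome genes, 33.3% of chaperones, 26.8% of sarcomere genes, 23.3% of splicing genes, 22.9% of collagen and matrix genes, 20.8% of translation factors and 20.5% of ribosome biogenesis genes, the 7 lists above 20%. The shares called lower were 32.7% of histone genes, 16.7% of cell division genes and 15.6% of immediate early genes. Of the calls, 73.4% were higher with TMM scaling and 53.9% with upper-quartile scaling, which called 417 genes higher and 356 lower. MET+LEU replicate 6 stood apart from the other libraries, and without it 312 genes were higher (1.94% of 16062 tested) and 145 were lower (0.903%), of which 424 were among the 999. All 999 genes had the same direction without that library. With the 2 groups fitted alone, 311 genes were called with replicate 6 and 872 without it, the latter fit chosen after seeing the data. Values without replicate 6 therefore accompany many of the results that follow, and a value given alone is from the fit with all libraries. Counts of list members called are to be set against 4.61% higher and 1.67% lower over all genes. Without replicate 6 these shares are 1.94% and 0.903%.

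**Figure D1:**
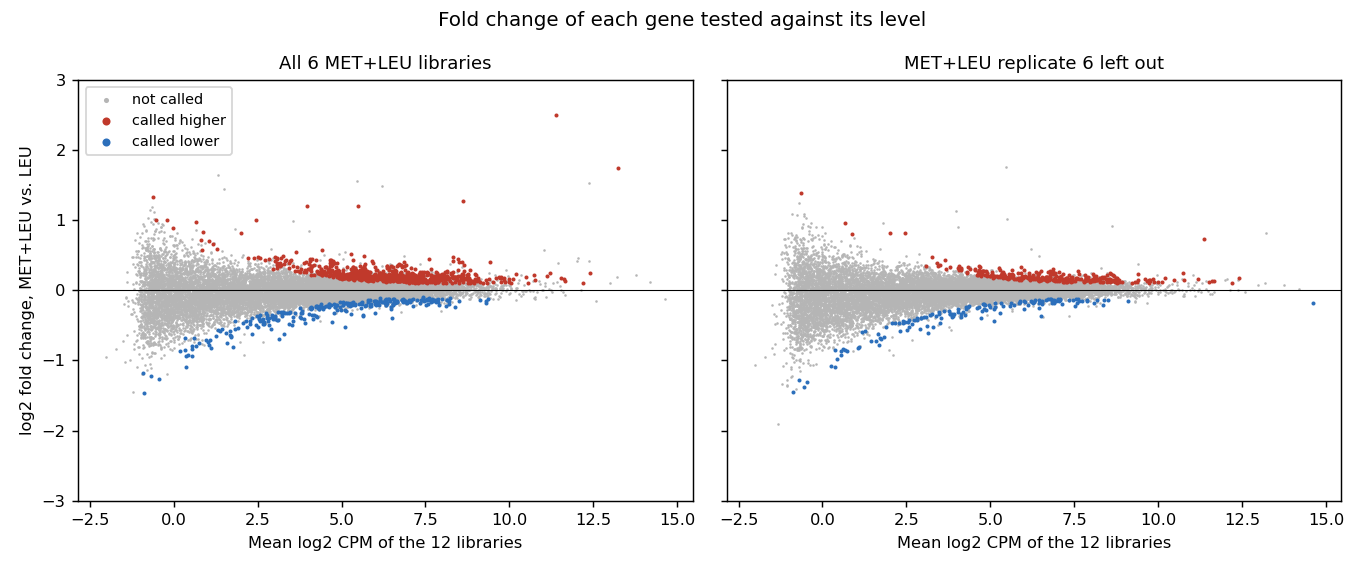
Log2 fold change of MET+LEU vs. LEU (y axis) against mean log2 CPM of the 12 libraries (x axis) for each gene tested, with all libraries on the left and without MET+LEU replicate 6 on the right. Red points are genes called higher and blue points genes called lower, 733 and 266 on the left and, among genes tested in both fits, 312 and 144 on the right, and most lie within 0.25 of 0. In each panel 1 gene lies beyond the limits of 3.

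Total counts on genes were 13926677 to 18322581 per library. In MET+LEU replicate 6 nuclear ribosomal RNA genes took 5.85% of the counts, mitochondrial ribosomal RNA genes 7.64% and mitochondrially encoded mRNA genes 5.17%, against at most 1.96%, 0.76% and 3.38% in the other 5 MET+LEU libraries. Its genes were also ordered by base composition: the slope of log2 level on GC content was -0.202 per 10 percentage points in replicate 6, between -0.0702 and 0.0657 in the other MET+LEU libraries and between 0.00681 and 0.0774 in LEU. The slopes of the 2 groups differed by -0.0705 (exact permutation test, two-sided, p = 0.0866, and p = 0.173 without replicate 6). With an offset for GC content in the fit, 650 genes were higher (4.09%) and 141 were lower (0.886%), and 574 of these were among the 999. The markers of differentiated muscle were abundant in every library, with summed levels of 12200 to 12700 CPM in LEU and 11400 to 13200 in MET+LEU. Marker sums, here and below, are counts scaled to the library total only. They are not corrected for the larger ribosomal and mitochondrial RNA shares of replicate 6. Levels of single genes are CPM scaled to library size and by the trimmed mean of M values (TMM). Markers of adipocytes were at 0 to 0.223 CPM with 2 of 5 at 0 in all 12 libraries, those of endothelial cells at 1.1 CPM or less, and those of macrophages at 1.76 to 4.68 CPM with 1 of 5 at 0. The 5 fibroblast markers, none of them at 0, summed to 50.4 to 59.2 CPM (median 54.9) in LEU and 54.3 to 67.1 (median 60) in MET+LEU.

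Chaperones of the endoplasmic reticulum (ER) and cytosol, the proteins that fold new polypeptides, are described first, with the letters upstream of their genes. Of 30 chaperone genes tested 10 were higher and 0 lower, 33.3% against 4.61% of all genes, with a median log2 fold change of 0.0883 against 0.00254 over all genes. The window from 250 bases upstream to the start site was available from RefSeq (GRCm38.p6) for 8 of the 10 called genes, and 5 of these 8 held the ER stress response element, read as CCAAT, 9 bases of any kind and CCACG on either strand, as did 7 of 24 listed chaperones (29.2%) and 15 of 10482 genes tested with a window (0.143%). The element begins with the CCAAT box, so every match is also a CCAAT match. The 4 below hold it outside the transcribed region that GENCODE annotates, with the element in capitals (CGTGG where it lies on the other strand), printed 5′ to 3′ up to the first annotated start, from Hsp90b1 at chr10:86705510-86705694 (minus strand), Calr at chr8:84846935-84847181 (minus), Canx at chr11:50325674-50325923 (minus) and Dnajc3 at chr14:118937682-118937931 (plus). They are shown as examples of the 5 called genes that hold the element, and a match describes letters only. Of the 8 called genes with a window 3 did not hold it, and 2 of the 7 listed holders were not called.
Hsp90b1: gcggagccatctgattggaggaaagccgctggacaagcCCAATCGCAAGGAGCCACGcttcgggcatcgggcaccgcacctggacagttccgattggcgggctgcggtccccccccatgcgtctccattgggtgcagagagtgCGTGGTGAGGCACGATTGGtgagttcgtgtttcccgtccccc
Calr: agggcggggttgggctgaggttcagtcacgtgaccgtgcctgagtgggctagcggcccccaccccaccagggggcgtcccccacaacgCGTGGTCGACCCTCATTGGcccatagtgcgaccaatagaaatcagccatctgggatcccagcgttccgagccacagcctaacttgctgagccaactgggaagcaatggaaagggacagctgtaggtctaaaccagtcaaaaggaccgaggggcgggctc
Canx: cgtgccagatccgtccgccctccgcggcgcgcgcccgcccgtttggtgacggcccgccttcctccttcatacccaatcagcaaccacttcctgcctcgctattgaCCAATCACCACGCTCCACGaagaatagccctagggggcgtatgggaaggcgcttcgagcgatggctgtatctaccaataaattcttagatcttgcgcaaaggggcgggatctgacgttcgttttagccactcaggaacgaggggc
Dnajc3: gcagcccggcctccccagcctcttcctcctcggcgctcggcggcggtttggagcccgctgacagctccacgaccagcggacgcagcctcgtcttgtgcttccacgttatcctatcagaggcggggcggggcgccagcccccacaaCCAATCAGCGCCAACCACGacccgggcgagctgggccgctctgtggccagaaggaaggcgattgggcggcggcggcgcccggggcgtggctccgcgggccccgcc

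Hsp90b1, the HSP90 of the ER (GRP94), lay between 388 and 418 CPM (median 406) in LEU and between 438 and 556 (median 462) in MET+LEU. No library of one group overlapped the other, and the log2 fold change was 0.24 (SE 0.04, adjusted p = 0.000496, and 0.18 without replicate 6, adjusted p = 0.00152). Hspa8, the constitutive cytosolic HSP70, was at 786 to 832 CPM (median 804) in LEU and 879 to 1030 (median 901) in MET+LEU, again without overlap, a log2 fold change of 0.19 (SE 0.04, adjusted p = 0.0013, and 0.15 without replicate 6). Pdia3, a disulfide isomerase of the ER, rose by 0.20 and Hsph1, a nucleotide exchange factor of HSP70, by 0.19 on the log2 scale. Of the members named after their values were seen, Hsp90aa1 (cytosolic HSP90) rose by 0.20, Hspd1 (mitochondrial HSP60) by 0.21, Calr and Canx, the lectin chaperones of the ER, by 0.17 and 0.16, Hspa5 (BiP) by 0.15 and Dnajc3, a co-chaperone of BiP, by 0.14. The MET+LEU libraries lay above all LEU libraries for each of the 10 genes called, as they did for 347 of the 733 genes called higher. Over all genes tested they lay above for 435 (2.73%) and below for 137 (0.861%), and a gene called higher is more likely to lie above by that choice. Of the 10, Dnajc3 was not called without replicate 6 (adjusted p = 0.18), where 9 list members were called, and with the GC offset Hspa5 (adjusted p = 0.0666) and Dnajc3 (adjusted p = 0.157) were not. Of 40 genes for the integrated stress response and amino acid supply 1 was higher and 0 were lower (median -0.0682), and 0 and 0 without replicate 6. Atf4, its central transcription factor, was at -0.10 (adjusted p = 0.0722) and Chac1 at -0.27 (adjusted p = 0.0744). Gdf15, a secreted stress hormone that metformin is known to raise in other tissues, was at 1.59 to 2.98 CPM in LEU and 0.972 to 1.9 in MET+LEU (adjusted p = 0.277).

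Protein degradation genes were read in their groups, the proteasome, the muscle ubiquitin ligases and autophagy. Of 38 proteasome genes 13 were higher (34.2%) and 0 lower, with a median of 0.0873. Psmc6, an ATPase of the 19S cap, was at 167 to 181 CPM (median 174) in LEU and 191 to 232 (median 197) in MET+LEU, which did not overlap (log2 fold change 0.23, SE 0.04, adjusted p = 0.000756). Pomp, the assembly factor of the 20S core, was at 59.8 to 69.7 CPM in LEU and 70.9 to 86.6 in MET+LEU (0.24, adjusted p = 0.00562, and 0.22 without replicate 6). The count depended on single libraries: 4 proteasome genes were called without replicate 6 and 3 without LEU replicate 4. The median of the list was 0.0643 to 0.0886 when any 1 library was left out. Among 15 muscle ubiquitin ligase and FoxO genes, 1 was higher (Nedd4, 0.10) and 1 lower (Mul1, a mitochondrial ligase, -0.21), neither called without replicate 6, and Fbxo32, the atrophy ligase atrogin-1, was at 118 to 134 CPM in LEU and 128 to 153 in MET+LEU (adjusted p = 0.141). Of 40 autophagy and lysosome genes 3 were higher (7.5%) and 1 lower (2.5%), against 4.61% and 1.67% of all genes, and 2 and 0 without replicate 6. The list was led by Ctsl, the lysosomal protease cathepsin L (0.17, adjusted p = 0.00745, and adjusted p = 0.0837 with the GC offset).

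**Figure D2:**
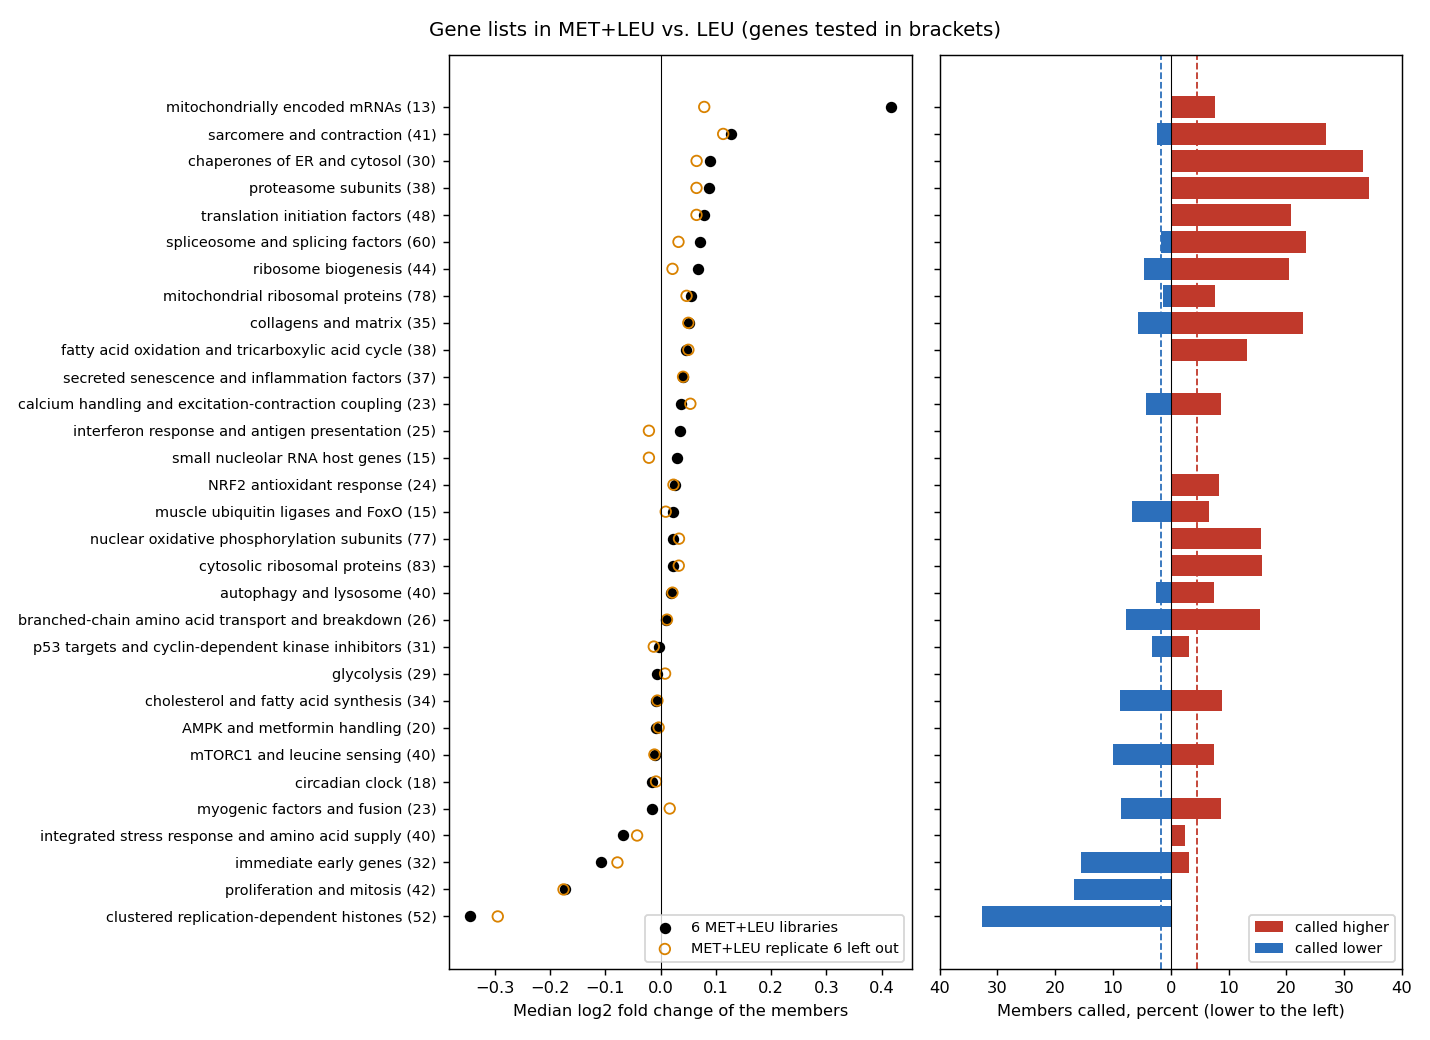
Median log2 fold change of each gene list (left, black with all libraries and orange without MET+LEU replicate 6) and percent of its members called higher (red, to the right) or lower (blue, to the left), with the shares over all genes, 4.61% and 1.67%, as dashed lines. Proteasome, chaperone, sarcomere and splicing lists reach 23.3% to 34.2% called higher, and histones reach 32.7% called lower.

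Translation genes rose in part. Of 48 initiation and elongation factors 10 were higher (20.8%) and 0 lower, with a median of 0.0777, and 8 were called without replicate 6. Eef1d, a subunit of the elongation factor that recharges eEF1A, was at 96.3 to 107 CPM in LEU and 109 to 133 in MET+LEU (0.22, SE 0.04, adjusted p = 0.00133). Eif3e rose by 0.18 and Eif2b5, the catalytic subunit of the exchange factor that the integrated stress response inhibits, by 0.19, while Eif3j1 rose by 0.43 with replicate 6 and 0.25 without it. Without LEU replicate 3 the list had 3 genes called higher. Of 44 ribosome biogenesis genes 9 were higher and 2 lower, with Dkc1, the pseudouridine synthase of ribosomal RNA, at 27.8 to 31.8 CPM in LEU and 34.4 to 41.2 in MET+LEU (0.28, SE 0.06, adjusted p = 0.00271), Npm1, nucleophosmin, at 0.24 and Nol6 at -0.22. Without replicate 6 there were 3 higher and 1 lower, and without LEU replicate 3 there were 2 higher.

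Cytosolic ribosomal proteins did not move as a block. Of 83 genes 13 were higher (15.7%) and 0 lower, and 10 and 0 without replicate 6. Yet 48 had a positive and 35 a negative fold change and the median was 0.0221. The mean level of the list relative to LEU was 0.0835 to 0.168 (log2) in MET+LEU replicates 1, 2 and 3 and -0.0929 to -0.0189 in replicates 4, 5 and 6, and the LEU libraries lay between -0.046 and 0.0453. The median of the list was -0.00909 to 0.0376 over the fits that leave out 1 library. Rps6, the ribosomal protein that S6 kinase phosphorylates, was at 297 to 321 CPM (median 302) in LEU and 334 to 364 (median 347) in MET+LEU without overlap (0.19, SE 0.04, adjusted p = 0.000897, and 0.17 without replicate 6, adjusted p = 0.00297). Rpl21 was at 176 to 192 CPM in LEU and 198 to 275 in MET+LEU, with 198 to 226 in the 5 libraries other than replicate 6 (0.31, adjusted p = 0.000496), and Rpl12 rose by 0.21. Ribosomal protein genes have many near-identical pseudogenes, and how reads shared with them were counted is not given in the sources used here, so their values are uncertain. Of 60 splicing genes 14 were higher (23.3%) and 1 lower, led by Hnrnpc, an RNA-binding protein of nascent transcripts, at 157 to 163 CPM in LEU and 174 to 194 in MET+LEU (0.21, SE 0.03, adjusted p = 0.000381, and 0.18 without replicate 6), and Lsm6, a U6 snRNA ring subunit (0.26). Without replicate 6 there were 5 higher, the fewest when 1 library was left out.

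Contractile genes came next. Of 41 sarcomere and contraction genes 11 were higher (26.8%) and 1 lower, 36 had a positive fold change, and the median was 0.127 with replicate 6 and 0.113 without it, where 6 were higher and 2 lower. Without LEU replicate 3 there were also 6 higher. Tnnt3, fast skeletal troponin T, was at 558 to 627 CPM (median 607) in LEU and 643 to 1240 (median 743) in MET+LEU, the highest value being replicate 6 and the next 765. Its log2 fold change was 0.41 (SE 0.11, adjusted p = 0.0248) and 0.23 without that library (adjusted p = 0.0302), and its call was lost without LEU replicate 1, 3, 4 or 5. Tpm2, a tropomyosin, was at 2100 to 2290 CPM in LEU and 2360 to 3220 in MET+LEU (0.25, SE 0.05, adjusted p = 0.00441, and 0.17 without replicate 6), and Tpm1 rose by 0.24 with 1 pair of libraries out of order. Lmod3, which nucleates thin filaments, rose by 0.27, and Myom2, an M-band protein, was at 738 to 798 CPM in LEU and 807 to 1010 in MET+LEU (0.19, adjusted p = 0.00271). Of the myosin heavy chains, Myh1 (fast IIx) was at 1980 to 2200 CPM in LEU and 2220 to 3130 in MET+LEU (0.21, adjusted p = 0.0273) and Myh4 (fast IIb) rose by 0.31 (adjusted p = 0.0473), but without replicate 6 they were at 0.11 (adjusted p = 0.0681) and 0.19 (adjusted p = 0.149). Myh2 (fast IIa), Myh3 (embryonic), Myh7 (slow) and Myh8 (perinatal) were at 0.26, 0.22, 0.24 and 0.22 with adjusted p-values of 0.196, 0.133, 0.0685 and 0.0661. Casq2, a calcium buffer of the sarcoplasmic reticulum, rose by 0.19 (adjusted p = 0.00161). It was 1 of 2 genes higher (8.7%) among 23 for calcium handling with 1 lower (4.35%), against 4.61% and 1.67% of all genes. Without replicate 6 that list had 1 higher and 0 lower. Among 23 myogenic and fusion genes 2 were higher and 2 lower (8.7% each, median -0.0153), and 1 and 0 without replicate 6. Mef2c, a transcription factor of muscle differentiation, was at 810 to 931 CPM in LEU and 920 to 1020 in MET+LEU (0.18, adjusted p = 0.00587, and adjusted p = 0.0529 with the GC offset). The 2 lower were Mymk, also a marker of differentiated muscle above (-0.18, adjusted p = 0.0416), and Tcf3 (-0.16, adjusted p = 0.045). Of 35 collagen and matrix genes 8 were higher and 2 lower, and 6 and 1 without replicate 6. Among them were Col5a2 (0.15) and Bgn, the proteoglycan biglycan (0.17), against Lama5, a laminin chain of the basement membrane, at 291 to 309 CPM in LEU and 207 to 271 in MET+LEU (-0.23, adjusted p = 0.00401). Beside these, the summed fibroblast markers had a median of 54.9 CPM in LEU and 60 in MET+LEU with overlapping ranges, none of the 5 was called, and Dcn, the proteoglycan decorin, named after its values were seen, was at 0.31 (adjusted p = 0.0569). The part of fibroblast-like cells in the matrix result was not tested.

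**Figure D3:**
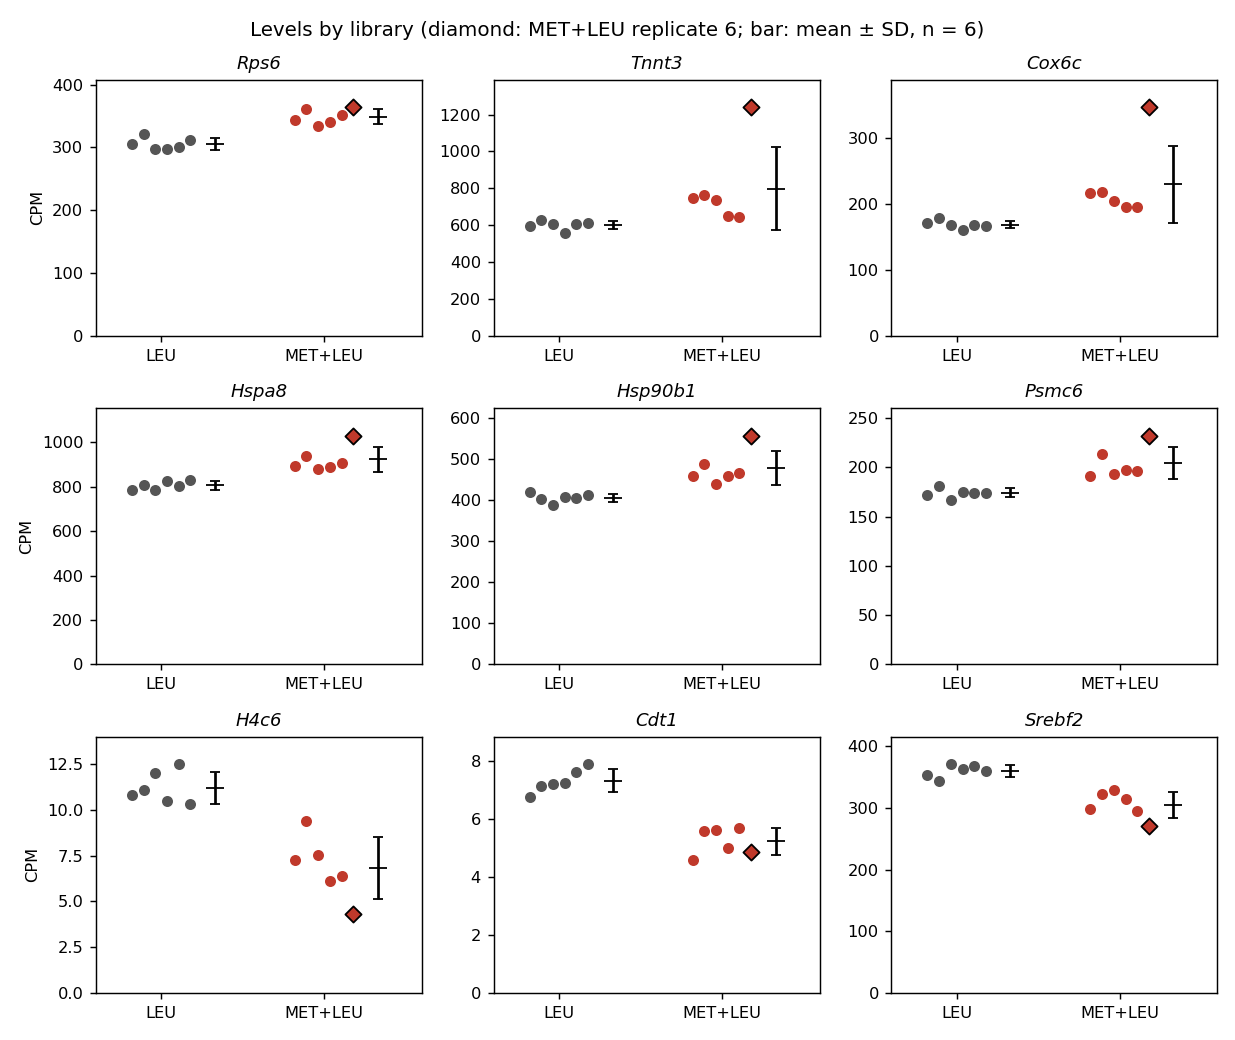
Level in CPM (y axis, from 0, TMM-scaled) of 9 genes in each LEU (grey) and MET+LEU (red) library, with the mean ± SD of 6 libraries beside the points and replicate 6 of MET+LEU as a diamond. Rps6, Tnnt3, Cox6c, Hspa8, Hsp90b1 and Psmc6 lie higher and H4c6, Cdt1 and Srebf2 lower in all 6 MET+LEU libraries than in any LEU library, and replicate 6 is the farthest from LEU for Tnnt3, at 1240 CPM.

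Mitochondrial genes are given by the genome that encodes them. Of 77 nuclear genes for oxidative phosphorylation 12 were higher (15.6%) and 0 lower, although the median was 0.0221, and there were 5 without replicate 6 and 4 without LEU replicate 3. The mean level of this list relative to LEU was 0.085 to 0.149 (log2) in MET+LEU replicates 1, 2 and 3. In replicates 4, 5 and 6 it was -0.105 to -0.0443, and the LEU libraries lay between -0.0677 and 0.0596. Cox6c, a subunit of cytochrome c oxidase, was at 161 to 179 CPM in LEU and 195 to 347 in MET+LEU, with 195 to 219 in the libraries other than replicate 6 (0.44, SE 0.10, adjusted p = 0.0135, and 0.28 without it, adjusted p = 0.0162). Ndufb9 and Ndufs5, accessory subunits of complex I, rose by 0.34 and 0.28. Cycs, cytochrome c, was at 49.4 to 54.6 CPM in LEU and 62 to 87.1 in MET+LEU (0.42, SE 0.06, adjusted p = 0.000218, and 0.34 without replicate 6). Of 38 genes of fatty acid oxidation and the tricarboxylic acid cycle 5 were higher and 0 lower, led by Sucla2, a subunit of succinyl-CoA synthetase (0.23), and Pdha1, the E1 subunit of pyruvate dehydrogenase, at 268 to 280 CPM in LEU and 296 to 321 in MET+LEU (0.16, SE 0.03, adjusted p = 0.00184), and 4 were higher without replicate 6. Of 78 mitochondrial ribosomal proteins 6 were higher (7.69%) and 1 lower (1.28%), against 4.61% and 1.67% of all genes. Mrpl18 was at 0.27 and Mrpl55 at -0.38, and 4 members were called higher and 1 lower without replicate 6. None of the 29 glycolysis genes was called, with 3 at an unadjusted p under 0.05 and a median of -0.00734, and 1 was called higher without replicate 6.

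Of the 13 mRNA genes of the mitochondrial genome 1 was called, mt-Nd6, the complex I subunit encoded on the opposite strand from the others, at 247 to 312 CPM in LEU and 327 to 572 in MET+LEU (0.48, adjusted p = 0.0317, and adjusted p = 0.126 without replicate 6). The median of the 13 was 0.416 with replicate 6 and 0.0787 without it. The mean level of the list stood at 1.53 (log2) above LEU in replicate 6 and between -0.0898 and 0.0762 in the other 5, within the -0.0969 to 0.07 of the LEU libraries, whereas as a share of all counts it had a median of 2.95% in LEU and 3.2% in MET+LEU (exact permutation test on log2 shares, two-sided, p = 0.00866, adjusted p = 0.0317 over 4 classes, and p = 0.0173 without replicate 6). The 2 mitochondrial ribosomal RNAs differed: mt-Rnr2 (16S) was at 1400 to 1920 CPM (median 1640) in LEU and 2010 to 3530 in MET+LEU replicates 1 to 5, with 42500 in replicate 6, a log2 fold change of 2.50 (SE 0.56, adjusted p = 0.00904) with that library and 0.73 (adjusted p = 0.0167) without it. The call of mt-Rnr2 was lost with the 2 groups fitted alone (adjusted p = 0.148) and with the replicate block (1.79, adjusted p = 0.0537, or 0.0668 with the GC offset as well). With ribosomal RNA shares as covariates it was also lost (0.45, adjusted p = 0.0689). The mitochondrial covariate is the share of mt-Rnr1 and mt-Rnr2 themselves, so that fit could not test the change of either gene. mt-Rnr1 (12S) was at 3510 to 5230 CPM in LEU and 3540 to 4970 in MET+LEU replicates 1 to 5, with 52700 in replicate 6, and was at 1.53 (adjusted p = 0.0719) and 0.0076 without it (adjusted p = 0.991). The nuclear ribosomal RNA gene CT010467.1 was at 5030 to 10600 CPM in LEU and 6690 to 72800 in MET+LEU (1.74, adjusted p = 0.0311), and was not called without replicate 6 (0.82, adjusted p = 0.238). Nuclear ribosomal RNA had a median share of 0.591% in LEU and 1.13% in MET+LEU (exact permutation test, p = 0.0238, adjusted p = 0.0317, and p = 0.0476 without replicate 6), and mitochondrial ribosomal RNA of 0.588% and 0.709% (p = 0.0173, adjusted p = 0.0317, and p = 0.0346 without it). The libraries were depleted of ribosomal RNA, so these shares are what depletion left, and how far depletion differed between libraries was not tested. mt-Tp, the mitochondrial proline tRNA, encoded opposite to the heavy-strand genes as mt-Nd6 is, was at 2.54 to 3.41 CPM in LEU and 4.27 to 6.37 in MET+LEU (0.82, SE 0.14, adjusted p = 0.000586), and its value without replicate 6 was also 0.82.

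Clustered histone genes, which supply nucleosomes while DNA replicates, had the lowest median of the 31 lists. Of the 52 tested of 61 listed, 17 were lower (32.7% against 1.67% of all genes) and 0 higher, 47 had a negative fold change and the median was -0.345. Without replicate 6 there were 11 lower with a median of -0.295, with the GC offset 11 with a median of -0.239, and without LEU replicate 3 also 11. All 6 MET+LEU libraries lay below all LEU libraries in the mean of the list. They were at -0.217 to -0.162 (log2 relative to LEU) in replicates 1, 2 and 3 and -0.56 to -0.352 in replicates 4, 5 and 6, against -0.101 to 0.107 in LEU. The median GC content of the list was 57.8%, against 57.6% in the quintile of genes with the highest GC content. Upstream windows were available for 15 of the 17, and 10 held a CCAAT box (CCAAT, both strands). The box was in 39 of 47 listed genes (83%) and in 36.8% of genes tested with a window. A TATA box (TATAAA, both strands) was in 6 of the 15, in 24 of 47 listed genes (51.1%) and in 6.79% of genes tested with a window. The windows of H2bc11, the member with the largest negative fold change, at chr13:22042948-22043197 (plus), and of H3c6, at chr13:23562386-23562635 (minus), are printed from 250 bases upstream to the RefSeq start site (GRCm38.p6), with CCAAT and its reverse complement in capitals. They are shown because they fell and carry the box 5 and 4 times.
H2bc11: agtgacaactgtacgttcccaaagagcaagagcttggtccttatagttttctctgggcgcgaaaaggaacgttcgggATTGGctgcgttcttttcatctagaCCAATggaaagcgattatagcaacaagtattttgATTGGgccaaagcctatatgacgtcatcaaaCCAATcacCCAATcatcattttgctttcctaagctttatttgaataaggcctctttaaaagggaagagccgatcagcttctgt
H3c6: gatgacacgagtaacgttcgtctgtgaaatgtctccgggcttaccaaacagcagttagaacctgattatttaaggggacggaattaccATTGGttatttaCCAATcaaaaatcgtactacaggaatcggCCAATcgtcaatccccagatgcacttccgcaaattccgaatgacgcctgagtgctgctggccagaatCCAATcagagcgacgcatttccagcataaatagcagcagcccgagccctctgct

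H4c6, a gene of histone H4, was at 10.3 to 12.5 CPM (median 10.9) in LEU and 4.29 to 9.37 (median 6.82) in MET+LEU without overlap, on 53 counts in the lowest library (log2 fold change -0.70, SE 0.13, adjusted p = 0.00161, and -0.61 without replicate 6, adjusted p = 0.00297). H4c11 was at 3.78 to 5.2 CPM in LEU and 1.13 to 3.06 in MET+LEU (-0.81, adjusted p = 0.00725), and H4c12 fell by 0.62. H4c8 was at 38.1 to 49.7 CPM in LEU and 17.3 to 35.4 in MET+LEU (-0.53, adjusted p = 0.0153). Among the other core histones H2bc14 fell by 0.75, H3c7 by 0.45, H3c13 by 0.41 and H3c6 by 0.35, and H3c13 was not called with the GC offset (adjusted p = 0.145). H2bc11, named after its values were seen, was at 1.37 to 2.67 CPM in LEU and 0.366 to 1.64 in MET+LEU, on as few as 5 counts (-0.94, adjusted p = 0.0142). Genes of 1 histone type are nearly identical in sequence, so reads may be shared between them and the single genes are uncertain.

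Cell division genes were also read. Of 42 genes for proliferation and mitosis 7 were lower (16.7%) and 0 higher, 36 had a negative fold change and the median was -0.174, -0.176 without replicate 6 and -0.154 with the GC offset, with 4 and 6 genes lower. Without LEU replicate 5 there were 2 lower. Each of the 6 MET+LEU libraries had a lower mean of the list (-0.257 to -0.128) than any LEU library (-0.0551 to 0.0542), and replicate 6, at -0.161, was inside the range of the others. Cdt1, which loads the MCM helicase at replication origins, was at 6.76 to 7.9 CPM in LEU and 4.59 to 5.71 in MET+LEU (-0.49, SE 0.10, adjusted p = 0.00298, and -0.48 without replicate 6). Mcm5, a helicase subunit, fell by 0.43, Bub1b, a spindle checkpoint kinase, by 0.42 and Tk1, the S-phase thymidine kinase, by 0.40, and their fold changes were -0.51, -0.52 and -0.45 without replicate 6. Tonsl, a replication fork repair factor, fell by 0.44. These transcripts were rare: the summed level of 6 markers of cycling cells was 124 to 156 CPM in LEU and 110 to 131 in MET+LEU, while the 6 markers of undifferentiated myoblasts were at 355 to 375 and 254 to 373, the lowest value being replicate 6. The part of cycling myoblasts that had not fused in the histone and division results was not tested. Of 31 p53 targets and cyclin-dependent kinase inhibitors 1 was higher and 1 lower (Pdlim4, -0.15), and 0 and 0 without replicate 6. Cdkn1a (p21) was at 2140 to 2440 CPM in LEU and 1940 to 2290 in MET+LEU (-0.096, adjusted p = 0.162) and Trp53 was at -0.12 (adjusted p = 0.158). Of 50 secreted senescence and inflammation factors 37 could be tested and none was called, with 5 at an unadjusted p under 0.05 and 3 called higher with the GC offset. The mean of this list was 0.0246 to 0.109 (log2 relative to LEU) in MET+LEU and -0.0319 to 0.0377 in LEU. None of 25 interferon response genes was called or reached an unadjusted p under 0.05.

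Immediate early genes, which respond within minutes to serum and growth factors, were lower in 5 of 32 (15.6%) and higher in 1, with a median of -0.108 and of -0.0348 with the GC offset, where 3 were lower. Without replicate 6, 4 were lower and 1 higher, with a median of -0.0784. Ier2 was at 66 to 78.7 CPM in LEU and 41.1 to 64.7 in MET+LEU (-0.33, SE 0.07, adjusted p = 0.00467, and -0.26 without replicate 6), and Klf4, a zinc finger transcription factor, fell by 0.24. Egr1, a zinc finger factor induced by growth signals, was at 185 to 212 CPM in LEU and 165 to 179 in MET+LEU (-0.21, SE 0.04, adjusted p = 0.00133, and -0.22 without replicate 6), and with the GC offset it was at -0.13 (adjusted p = 0.0701).

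The pathways that sense metformin and leucine were read at the level of mRNA. Of 20 genes for AMPK and metformin handling none was called and none reached an unadjusted p under 0.05, with a median of -0.0092. Prkaa1 and Prkaa2, the catalytic subunits of AMPK, were at 0.063 (adjusted p = 0.323) and 0.015 (adjusted p = 0.905), and Stk11, the kinase LKB1 that activates AMPK, at 0.052 (adjusted p = 0.443). With the GC offset Stk11 was at 0.16 (adjusted p = 0.0242) and was the 1 gene of the list called. Prkaa1 was at 105 to 113 CPM in LEU and 110 to 120 in MET+LEU, which overlap. Of 40 genes for mTORC1 and leucine sensing 3 were higher (7.5%) and 4 lower (10%), with a median of -0.0113, and 0 and 1 without replicate 6. Mtor was at 149 to 159 CPM in LEU and 134 to 156 in MET+LEU (-0.048, adjusted p = 0.504), and Sesn2, the leucine sensor Sestrin2, was at -0.20 (adjusted p = 0.096). Rps6kb1, the S6 kinase that mTORC1 activates, was at 96.2 to 107 CPM in LEU and 111 to 152 in MET+LEU (0.22, adjusted p = 0.0128, and adjusted p = 0.0572 without replicate 6), and Flcn, folliculin, fell by 0.20 (adjusted p = 0.0677 without replicate 6). Lars2, the mitochondrial leucyl-tRNA synthetase, was at 189 to 464 CPM in LEU and 337 to 1400 in MET+LEU (1.27, adjusted p = 0.0357, and 0.91 without replicate 6, adjusted p = 0.15), and its highest LEU and MET+LEU libraries, replicates 3 and 6, were the highest for nuclear ribosomal RNA too. In 26 genes for transport and breakdown of branched-chain amino acids 4 were higher (15.4%) and 2 lower (7.69%), and 1 and 0 without replicate 6. Dld, the E3 subunit shared by the branched-chain and pyruvate dehydrogenase complexes, rose by 0.23, and Slc7a5, the leucine transporter LAT1, was at 114 to 128 CPM in LEU and 100 to 115 in MET+LEU (-0.15, adjusted p = 0.0243, and 0.0558 without replicate 6).

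Of 34 lipid synthesis genes 3 were higher and 3 lower (8.82% each, against 4.61% and 1.67% of all genes), and 0 and 1 without replicate 6. Srebf2, the transcription factor of cholesterol synthesis, was at 344 to 371 CPM (median 361) in LEU and 271 to 329 (median 306) in MET+LEU without overlap (-0.24, SE 0.04, adjusted p = 0.000997, and -0.22 without replicate 6 and -0.15 with the GC offset, both called). Hmgcs1, an enzyme of cholesterol synthesis and a target of that factor, was at 234 to 266 CPM in LEU and 266 to 312 in MET+LEU (0.18, adjusted p = 0.00847, and adjusted p = 0.0503 without replicate 6), and Fasn, fatty acid synthase, fell by 0.14 (adjusted p = 0.0618 without replicate 6). Of 24 antioxidant genes of NRF2 2 were higher (8.33%), and 0 without replicate 6. Of 15 small nucleolar RNA host genes and 18 clock genes none was called, with 4 and 3 at an unadjusted p under 0.05.

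By size among protein-coding and long non-coding genes called with and without replicate 6 whose libraries did not overlap and whose mean log2 CPM was at least 1, the largest rises were of Utp3, a nucleolar processing factor (0.51 and 0.32 without replicate 6), Bola2, an iron-sulfur cluster chaperone (0.45 and 0.35), Cox6c, Eif3j1, Cycs, Serbp1, an mRNA- and ribosome-binding protein (0.42 and 0.18), Leo1, a subunit of the PAF1 elongation complex (0.42 and 0.26), Tnnt3, Hmgb1, a chromatin protein (0.40 and 0.31), and Ybx1, an mRNA-packaging protein (0.40 and 0.25). The ribosomal RNA mt-Rnr2 and the tRNA mt-Tp, described above, are outside these gene types and rose more. The call of Serbp1 was lost in 13 of 29 alternatives, among them the fits without each LEU library (adjusted p = 0.0643 to 0.0995), with the GC offset (adjusted p = 0.0647) and with upper-quartile scaling (adjusted p = 0.0618). Ybx1 was at 318 to 344 CPM in LEU and at 365 to 425 in MET+LEU replicates 1 to 5, with 651 in replicate 6. The largest falls were of H4c11, Gm48700, H2bc14, H4c6, Gm38366, Neurl1b, a Notch pathway ubiquitin ligase (-0.62 and -0.58), H4c8, Cdt1, H3c7 and Tonsl. Gm48700 and Gm38366, genes named only by number, were at -0.78 and -0.66 on 1.88 to 3.36 and 3.25 to 4.71 CPM in LEU.

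**Figure D4:**
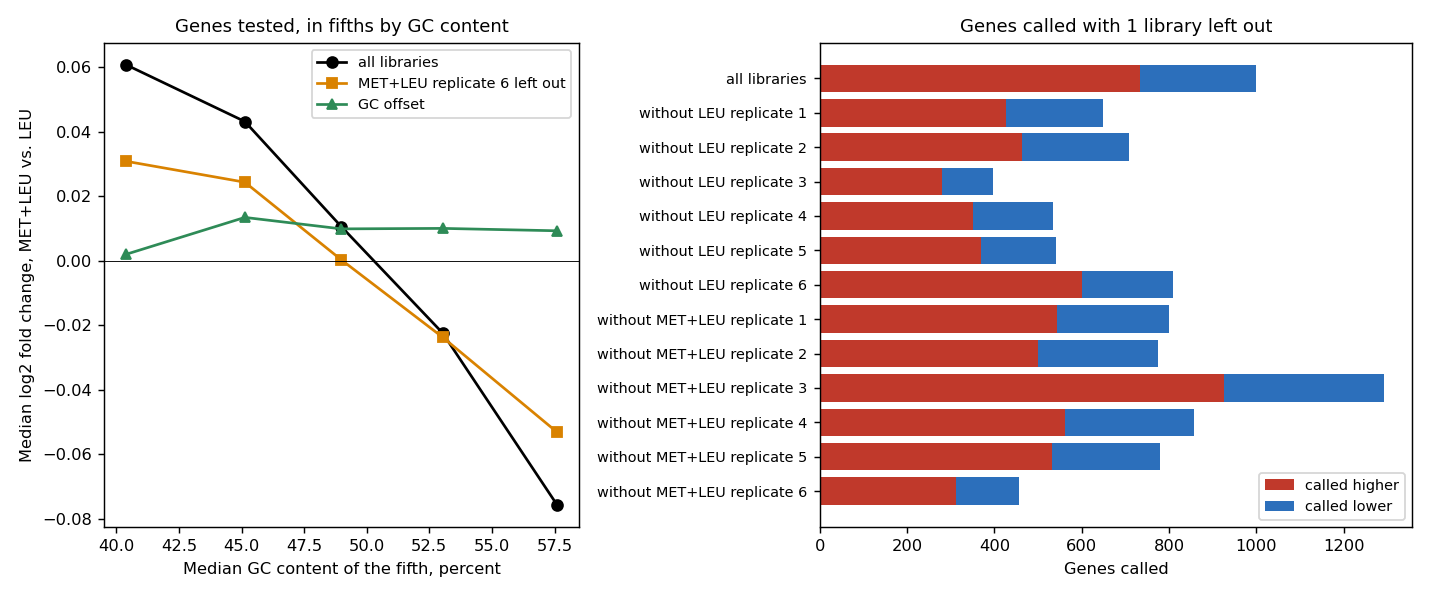
Left, median log2 fold change of MET+LEU vs. LEU (y axis) in quintiles of the genes tested by GC content (x axis, percent), with all libraries, without MET+LEU replicate 6 and with the GC offset. Right, number of genes called higher (red) and lower (blue) with all libraries and with each library left out, from 396 without LEU replicate 3 to 1293 without MET+LEU replicate 3.

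Base composition moved with the calls. In the quintile of genes with the lowest GC content (median 40.4%) the median log2 fold change was 0.0607 with 262 genes higher and 10 lower, and in the highest quintile (median 57.6%) it was -0.0756 with 30 higher and 149 lower. Without replicate 6 the medians were 0.0308 and -0.0531, and with the GC offset 0.00196 and 0.00926. The chaperone, proteasome and splicing lists had median GC contents of 48.3%, 49.6% and 47.4%, and with the offset 9, 12 and 10 of their genes were higher, while 15 sarcomere genes were higher with a median of 0.17 and 12 without replicate 6 as well. In all 4 fits, with and without the offset and replicate 6, 290 genes were called, 216 higher and 74 lower. The first principal component of the 12 libraries carried 23.2% of the variance (difference between groups by exact permutation test, two-sided, p = 0.974), and the second 14.9% (p = 0.0195, adjusted p = 0.039, and p = 0.0649 without replicate 6). The gene Gm24305 alone had a 34.7% share of the loadings of the first component and 3.64% of the second. Without that gene the first component carried 19.2% (exact permutation test, two-sided, p = 0.623). MET+LEU replicate 6 then scored 20.9 on it and the other libraries -9.66 to 1.77. The second component without that gene carried 15.2% (exact permutation test, two-sided, p = 0.0173, adjusted p = 0.0346).

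Metformin was also given without leucine in the series, and MET vs. SD uses none of these 12 libraries. Across the 999 genes called, 809 (81%) had the same direction in MET vs. SD, and Pearson's r of the fold changes across genes was 0.477, against 61.1% and 0.182 over all genes tested, where genes are not independent replicates. The genes called higher had a median log2 fold change of 0.199 with leucine and 0.0534 without it, and those called lower -0.231 and -0.062. These genes were chosen by the comparison with leucine, so a smaller median in the other one is expected from the choice alone. The list medians differed in places: chaperones were at 0.0883 with leucine and 0.0235 without, sarcomere genes at 0.127 and -0.0367, histones at -0.345 and -0.0212, and division genes at -0.174 and -0.0724. Other lists lay farther from 0 without leucine, with cytosolic ribosomal proteins at 0.0221 with leucine and 0.0945 without, glycolysis at -0.00734 and -0.12, and secreted senescence factors at 0.0409 and 0.0727. Of the 31 lists, 18 medians were larger in size with leucine and 13 without. The difference of these medians was not tested as such.

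**Figure D5:**
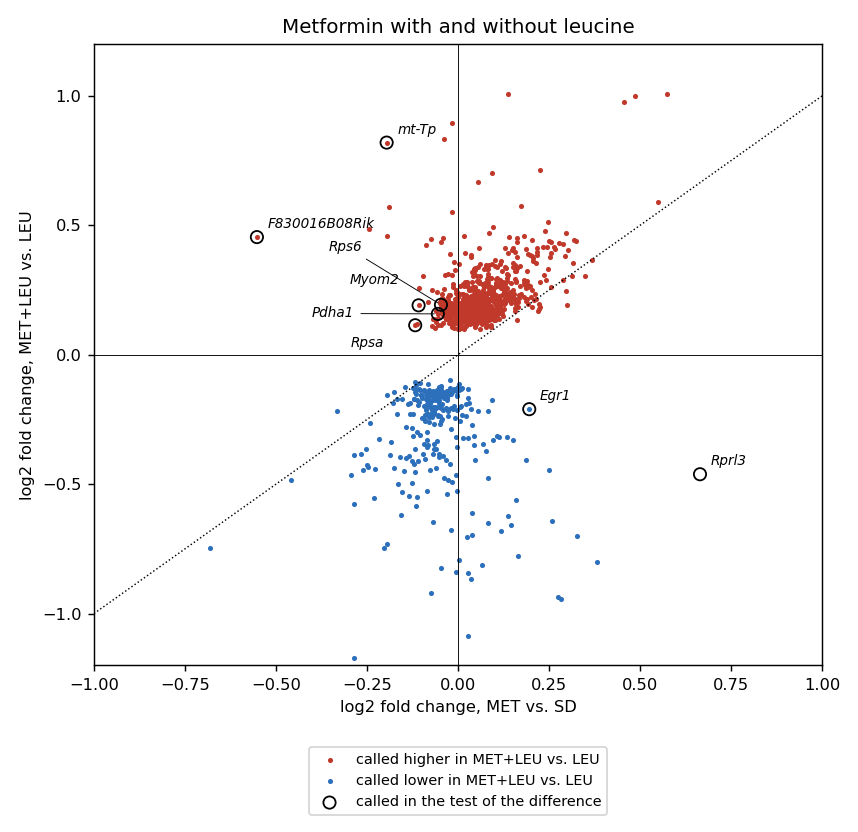
Log2 fold change of MET+LEU vs. LEU (y axis) against MET vs. SD (x axis) for the genes called in MET+LEU vs. LEU, red higher and blue lower, with equal values on the dotted line and 9 genes outside the axes. The 8 circled genes are those called in the test of the difference, and the red points crowd at positive and the blue at negative values of MET vs. SD but nearer to 0.

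The test of that difference gene by gene, metformin with leucine minus metformin without, called 8 of 15907 genes (0.0503%), with 1389 at an unadjusted p under 0.05. Egr1 had the smallest adjusted p (9.49e-05): it was at 162 to 182 CPM in SD and 178 to 209 in MET, where it rose by 0.20 (adjusted p = 0.0192), and it fell in MET+LEU, a difference of -0.41 (SE 0.06). Myom2 was at 723 to 825 CPM in SD and 695 to 770 in MET, and the difference was 0.30 (SE 0.06, adjusted p = 0.0156). Rps6 differed by 0.24 (SE 0.05, adjusted p = 0.0336), with 294 to 337 CPM in SD and 292 to 322 in MET, and Rpsa, the ribosomal protein that is also known as the laminin receptor, by 0.23 and Pdha1 by 0.21 at the same adjusted p. mt-Tp differed by 1.02 (SE 0.21), F830016B08Rik by 1.01 (adjusted p = 0.0156), although its own rise was not called without replicate 6 (adjusted p = 0.151). The last was Rprl3, an RNA of the ribonuclease P family, with a difference of -1.13, and with 5.85 to 11 CPM in SD, 8.16 to 15.9 in MET, 7.3 to 8.66 in LEU and 4.1 to 7.34 in MET+LEU. Of the 8 genes, 7 were also among the 999, all but Rprl3, which was at -0.46 in MET+LEU vs. LEU (adjusted p = 0.0831), and Rpsa lost its call there under 14 of the 29 alternatives. Leaving out 1 library of the 4 groups gave 1 to 11 genes in this test.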

How the data were processed

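Total RNA of C2C12 myotubes was depleted of ribosomal RNA with Ribo-Zero and sequenced as stranded libraries with 150 × 150 bp reads. The authors deposited raw counts of reads per gene, without normalization. The submitters' processing notes name cutadapt 1.16, STAR 2.7.6a, featureCounts 1.6.3, DESeq2 1.30.1 and GRCm38. The annotation release and strand setting are not given in the sources used here. Of 55487 genes, 55227 matched GENCODE M21 (GRCm38), and 260 with 0.00434% of the counts did not.

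Genes were kept by filterByExpr (minimum count 10, total 15), scaled by TMM and fitted over all 30 libraries with a mean per group in edgeR 4.0.16 (estimateDisp, robust glmQLFit; R 4.3.3), with Benjamini-Hochberg adjustment over 15907 genes. The biological coefficient of variation was 0.0709. The standard error is the absolute log2 fold change divided by the square root of F. Tested on simulated data of MET+LEU vs. LEU with 15907 genes, edgeR recovered 70 of 100 genes changed 1.25-fold and 93 of 100 changed 1.5-fold, with 7 false calls among 170. The simulated libraries held no outlying library and no ordering by GC content, unlike these data, so these rates may not hold for them. DESeq2 1.42.0 and voom of limma 3.58.1 were alternatives. CPM shown for single genes are TMM-scaled, and marker sums are scaled to library totals only. Shares of ribosomal and mitochondrial RNA and principal components of the 500 most variable genes (log2 CPM, prior count 2) were compared by exact permutation tests, whose smallest p for 6 against 6 is 0.00216. Same-numbered LEU and MET+LEU libraries did not deviate together (r -0.0439 to 0.0722, 0 of 6 pairs over 0.1), so numbers were not used as pairs.

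The comparison, its 31 gene lists (1151 of 1205 entries tested) and alternatives were chosen with earlier results of these data known. Named genes were drawn from several sets. The first was the 10 largest rises and falls among protein-coding or long non-coding genes called with and without MET+LEU replicate 6. These had a mean level of 1 or more on the log2 CPM scale and no overlap of the groups. Further sets were up to 4 members of each list with the smallest adjusted p and genes called in the test with minus without leucine. Ribosomal RNA genes and 15 fixed genes of AMPK, mTORC1, p53 and myosin were sets too. The rule also allowed up to 5 small structural RNA genes with the largest change past the threshold, but the text names none by it. Of 64 small nuclear and 98 small nucleolar RNA genes tested, 0 were called. Other named genes are said to have been named after their values were seen. Promoters are from RefSeq, matched by symbol, 1 window per gene nearest the GENCODE start.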

Additional observations from a re-analysis of the deposited data

Results flagged for a closer look

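In groups of 6, a library was set apart when its gap to the nearest of the others exceeded 0.625 of the range of its group (Dixon's test at 95%). Chance alone gives about 1 in 20 groups, or 11 of the 220 looked at, and 39 were found, 33 of them in MET+LEU replicate 6.

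In MET+LEU replicate 6 ribosomal and mitochondrial RNA stood far above the other 5 libraries of its group. mt-Rnr1 was at 52700 CPM, mt-Rnr2 at 42500, CT010467.1 at 72800 and mt-Nd6 at 572. Nuclear ribosomal RNA genes took 5.85% of its counts, mitochondrial ribosomal RNA genes 7.64% and mitochondrial mRNA genes 5.17%.

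The same library was the highest for contractile genes, with Tnnt3 at 1240 CPM, Tpm2 at 3220, Lmod3 at 253, Myh1 at 3130, Myh3 at 2050, Myh4 at 128 and Myh8 at 1120. For genes of RNA and chromatin it was the highest at 275 CPM for Rpl21, 652 for Serbp1, 651 for Ybx1, 77.5 for Utp3, 41.2 for Dkc1, 77.6 for Eif3j1, 47.9 for Leo1, 175 for Hmgb1 and 26 for Bola2. Among metabolic, folding and matrix genes it was the highest for Cox6c at 347 CPM, Ndufb9 at 178, Sucla2 at 124, Dld at 194, Pdia3 at 342, Calr at 1060, Rps6kb1 at 152 and Bgn at 3670, and it was the lowest for Slc7a5 at 100 CPM and Lama5 at 207.

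Outside that library, LEU replicate 1 was high for Rpl21 (192 CPM), LEU replicate 2 for Tpm1 (1180 CPM), LEU replicate 6 for Leo1 (25.7 CPM) and LEU replicate 3 for CT010467.1 (10600 CPM) and for the share of nuclear ribosomal RNA (1.06%). MET+LEU replicate 2 was low for Gm48700 (0.677 CPM).

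The effect of metformin with leucine minus that without it passed the threshold for 8 genes in edgeR's test of the difference, on the log2 scale at -0.406 for Egr1, 1.01 for F830016B08Rik, 0.299 for Myom2, 1.02 for mt-Tp, 0.213 for Pdha1, -1.13 for Rprl3, 0.24 for Rps6 and 0.231 for Rpsa.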

How the results depend on the processing

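Each of the 999 genes called in MET+LEU vs. LEU had the same direction under every alternative fit in which it was tested, but how many were called depended on the fit. Leaving out 1 library gave 396 to 1293 genes called, 279 to 925 higher and 117 to 368 lower, with 396 without LEU replicate 3, 457 without MET+LEU replicate 6, 535 without LEU replicate 4, 542 without LEU replicate 5 and 649 without LEU replicate 1. Leaving out MET+LEU replicate 6 and LEU replicate 3 together gave 219 (159 and 60). The 2 groups fitted alone gave 311 (208 and 103), and without replicate 6 (chosen after seeing the data) 872 (577 and 295). An adjusted p under 0.01 gave 260 (223 and 37). Upper-quartile scaling gave 417 higher, a filter of more than 5 counts in total 479 higher and DESeq2's Wald test 426 lower. The GC offset gave 141 lower and, without replicate 6 (chosen after seeing the data), 441 called (317 and 124). The causes were not tested.

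The test of metformin with leucine minus metformin without gave 1 to 11 genes when 1 library was left out and 1 without both libraries, in place of 8. It gave 5 with DESeq2 size factors, 4 with upper-quartile scaling, 28 with DESeq2's Wald test, 14 with voom, 3 with more than 5 counts in total, 1 with groups alone, 5 without the robust option, 109 with ribosomal RNA shares as covariates, 20 with the GC offset, 14 with a length offset, 4 with ribosomal and mitochondrial genes removed, 13 with the GC offset without replicate 6 and 1 at an adjusted p under 0.01.

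Replicate numbers did not pair the samples. The replicate block gave 1103 genes called (804 higher and 299 lower) and 17 in the test of the difference, and with the GC offset 909 (746 and 163) and 39.

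mt-Rnr1 turned to -0.177 with ribosomal RNA covariates, which hold its own counts and so could not test it. It turned to -0.0410 with the GC offset without replicate 6. Prkaa2, not called, turned to -0.00507 with upper-quartile scaling, -0.00735 with voom, -0.0395 with the GC offset, -0.0422 with the block and GC offset and -0.0231 with the GC offset without replicate 6, and lay between -0.0306 and 0.0364 when 1 library was left out. The small structural RNA share, at -0.0103 on the log2 scale (p = 0.82, exact permutation test), lay between -0.0368 and 0.00787 when 1 library was left out, above 0 for 4 of them, and turned to 0.0285 outside ribosomal RNA. Genes at a few CPM, such as H2bc11 on 5 counts, are limited by depth.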
